A study of Mus musculus with 30 samples.

Results

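The libraries compared were 6 of the 30 RNA libraries of a mouse melanoma study: 3 untreated tumours grown from the clone 2646R and 3 untreated tumours grown from the clone 14559R. The 6 libraries were assigned by their clone and treatment labels. Both are clones of YUMM1.7, a mouse melanoma cell line with activated Braf that lacks Cdkn2a, injected under the skin of C57BL/6 mice. All tumours were dissociated with collagenase and stained for viability and for the immune cell surface protein CD45, and the injected cancer cells were identified by strong green fluorescent protein signal before RNA was isolated. The study also holds a second pair of clones that carry the same numbers, 2646TN and 14559TN, a further clone, 13TN, and, for every clone, 3 tumours treated with an inhibitor of RAF and an inhibitor of MEK. What TN and R stand for is not given in the labels. Each clone is 1 line, so a difference between 2646R and 14559R is a difference between 2 lines and cannot be attributed to any property that either name stands for. Nothing in the labels says how many mice carried the tumours.

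Melanoma cells with activated Braf signal through MEK and ERK, which drives transcription of cyclins, ETS factors and the feedback inhibitors of the Dusp, Spry and Spred families. The cells arise from the neural crest lineage, whose members can show pigment cell, glial or mesenchymal features, and mesenchymal melanoma cells make collagens and other matrix proteins of their own. Clones taken from 1 cell line can differ in chromosome copy number, in silenced genes and in such features, and these differences are carried along when the clones are grown as tumours.

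The neural crest and melanocyte transcription factors Pax3, at 119 to 151 CPM in 2646R and 109 to 166 CPM in 14559R, and Mitf, at 29.1, 51.4 and 23.2 CPM in 2646R and 36.9, 29.6 and 30.3 CPM in 14559R, were present in all 6 libraries. CPM are counts scaled to a common library size with TMM factors. Of 27 pigment cell genes, 11 had no count in any of the 6 libraries, among them the melanin synthesis genes Tyr, Tyrp1 and Dct and the melanosome gene Mlana. Of 17 lymphocyte genes, 13 had no count, and 17 macrophage genes were counted at 40.3 CPM or less each, with sums of 57.1 to 115 CPM in 2646R and 48.5 to 105 CPM in 14559R. Totals ran from 3870756 to 5278453 counts per library and 14669 to 16180 genes had a count. Within a clone, Spearman correlations between libraries, across genes, were 0.963 to 0.981, and between the clones 0.921 to 0.954. Replicate 1 of 2646R stood apart: it had the most counts, the fewest genes with a count, 2.40% of its counts on the nuclear RNA Malat1 and 0.157% on mitochondrial genes. The other 2646R libraries had 1.68% and 1.50% on Malat1 and 0.131% and 0.0758% on mitochondrial genes, and the 14559R libraries 0.824% to 1.10% and 0.0627% to 0.0737%. The counts of calls and the named genes were also computed without this library.

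The untreated tumours of the 2 R clones differed at 2730 of 13286 tested genes (20.5%; edgeR quasi-likelihood test, Benjamini-Hochberg adjusted p under 0.05). In 2646R, 1356 genes were higher (10.2%) and 1374 were lower (10.3%). More than 2-fold, 536 were higher (4.03%) and 673 lower (5.07%). Without replicate 1 of 2646R, 798 genes were called higher and 843 lower, of which 1565 were among the 2730. Fitting only these 6 libraries gave 912 higher and 814 lower. The treated tumours of the same clones, which share no library with the untreated ones, differed at 3599 genes (27.1%). In treated 2646R 13.1% of all tested genes were higher and 14% lower. Of the 2730 genes, 1234 (45.2%, or 34.3% of the treated calls) were called in the same direction in treated tumours and 82 in the opposite one. The untreated TN pair, also made of separate libraries, differed at 2511 genes (18.9%). In 2646TN 10.1% of all tested genes were higher and 8.76% lower. Of the 2730 genes, 589 (21.6%, or 23.5% of the TN calls) were called in the same direction there and 233 in the opposite one. The difference between the R clones was itself different from that between the TN clones at 2205 genes (16.6%), above it at 1058 (7.96%) and below it at 1147 (8.63%). Of these, 1144 were among the 2730 (41.9%). It differed between treated and untreated tumours at 1114 genes (8.38%), higher in treated ones at 479 (3.61%) and lower at 635 (4.78%), with 441 of the 2730 (16.2%) among them.

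Genes on chromosomes 6, 15 and 19 were higher in 2646R as blocks. The median log2 fold change was 0.44 over 666 tested genes of chromosome 6, 0.49 over 514 of chromosome 15 and 0.52 over 443 of chromosome 19, against -0.16 to 0.08 for the other 17 chromosomes (autosomes and X) and 0.01 for all genes. These 3 chromosomes held 559 of the 1356 genes called higher (41.2%), with 12.2% of the tested genes, and 50 of the 1374 called lower. On chromosome 15, 193 genes were called higher and 23 lower, on chromosome 6 192 and 21, and on chromosome 19 174 and 6. Elsewhere 797 genes were called higher and 1324 lower. The shift ran along the whole length: among windows of 10 Mb with at least 10 tested genes, the median passed 0.3 in 13 of 15 on chromosome 6, 11 of 11 on chromosome 15 and 7 of 7 on chromosome 19, and in 4 of 228 windows elsewhere.

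**Figure D1:**
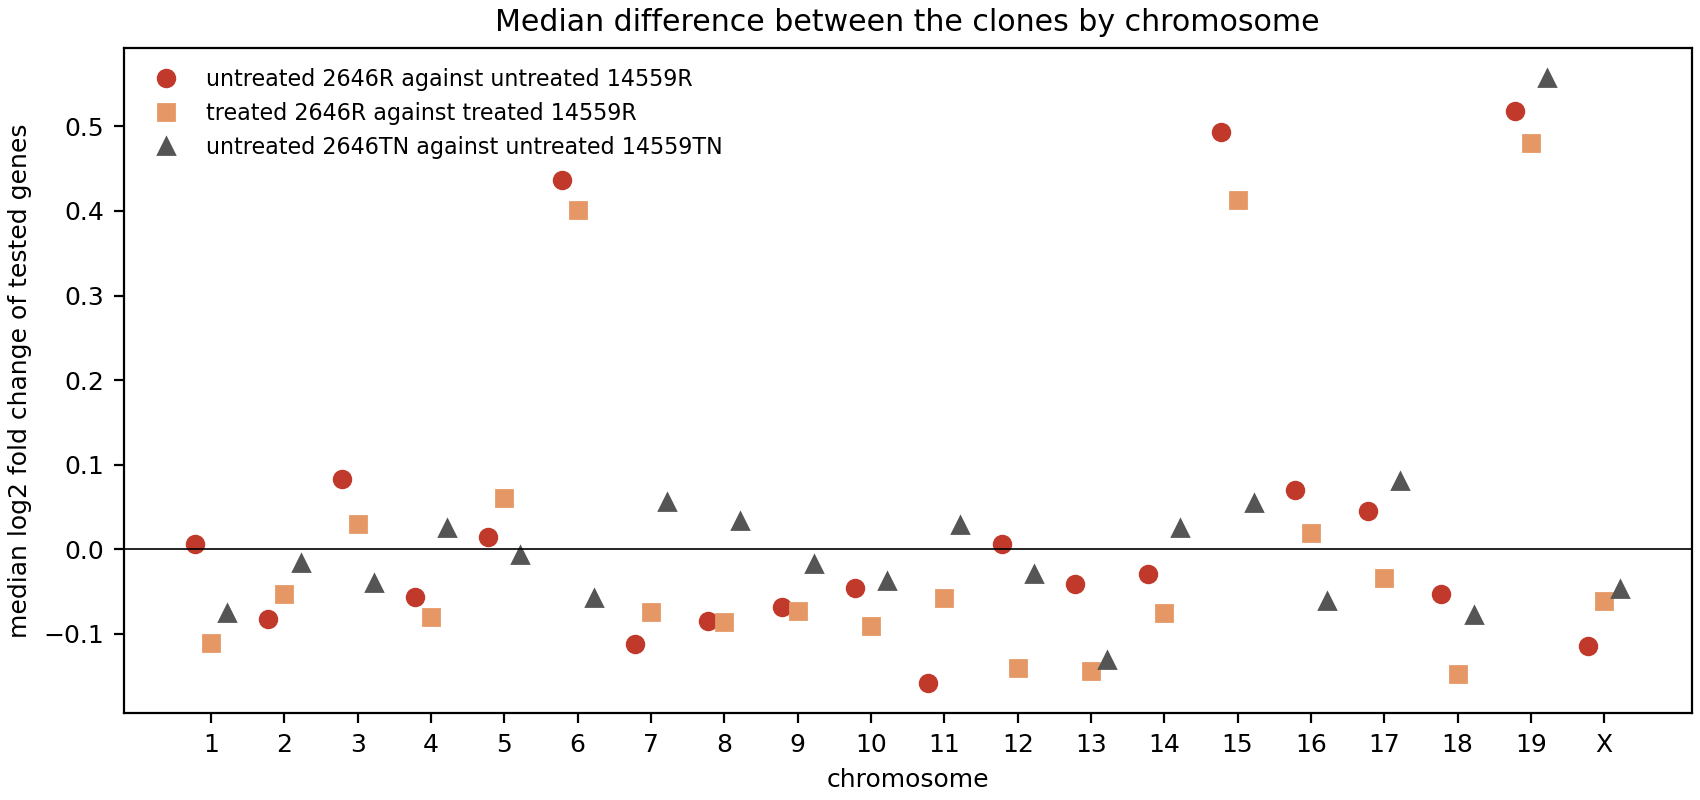
Median log2 fold change of the tested genes of each chromosome (x axis), 2646R against 14559R or 2646TN against 14559TN, in 3 comparisons that share no library. Chromosomes 6 and 15 stood at 0.44 and 0.49 in the untreated R pair and at 0.40 and 0.41 in the treated R pair, but at -0.06 and 0.06 in the untreated TN pair, while chromosome 19 stood at 0.48 to 0.56 in all 3.

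Across the other comparisons, the 3 chromosomes did not move as one. In the treated R pair the medians were 0.40 for chromosome 6, 0.41 for chromosome 15 and 0.48 for chromosome 19. In the untreated TN pair they were -0.06, 0.06 and 0.56. Library by library, against the mean of untreated 14559R and with the median of all genes taken off, chromosome 6 was at 0.30 to 0.48 in untreated 2646R and 0.45 to 0.47 in treated 2646R, and at -0.07 to 0.15 in every other library. Chromosome 15 was at 0.46 to 0.54 in untreated and 0.51 to 0.60 in treated 2646R. The other libraries were lower, though 1 treated 14559R library stood at 0.32 and treated 2646TN reached 0.23. That treated 14559R library, replicate 3, was also the one at 0.15 on chromosome 6. Chromosome 19 was at 0.43 to 0.59 in every library of 2646R, 2646TN and 13TN and at -0.02 to 0.04 in every library of 14559R and 14559TN. No DNA was measured, so copy number was not tested. The chromosome is given for genes described with their levels that lie on these 3.

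**Figure D2:**
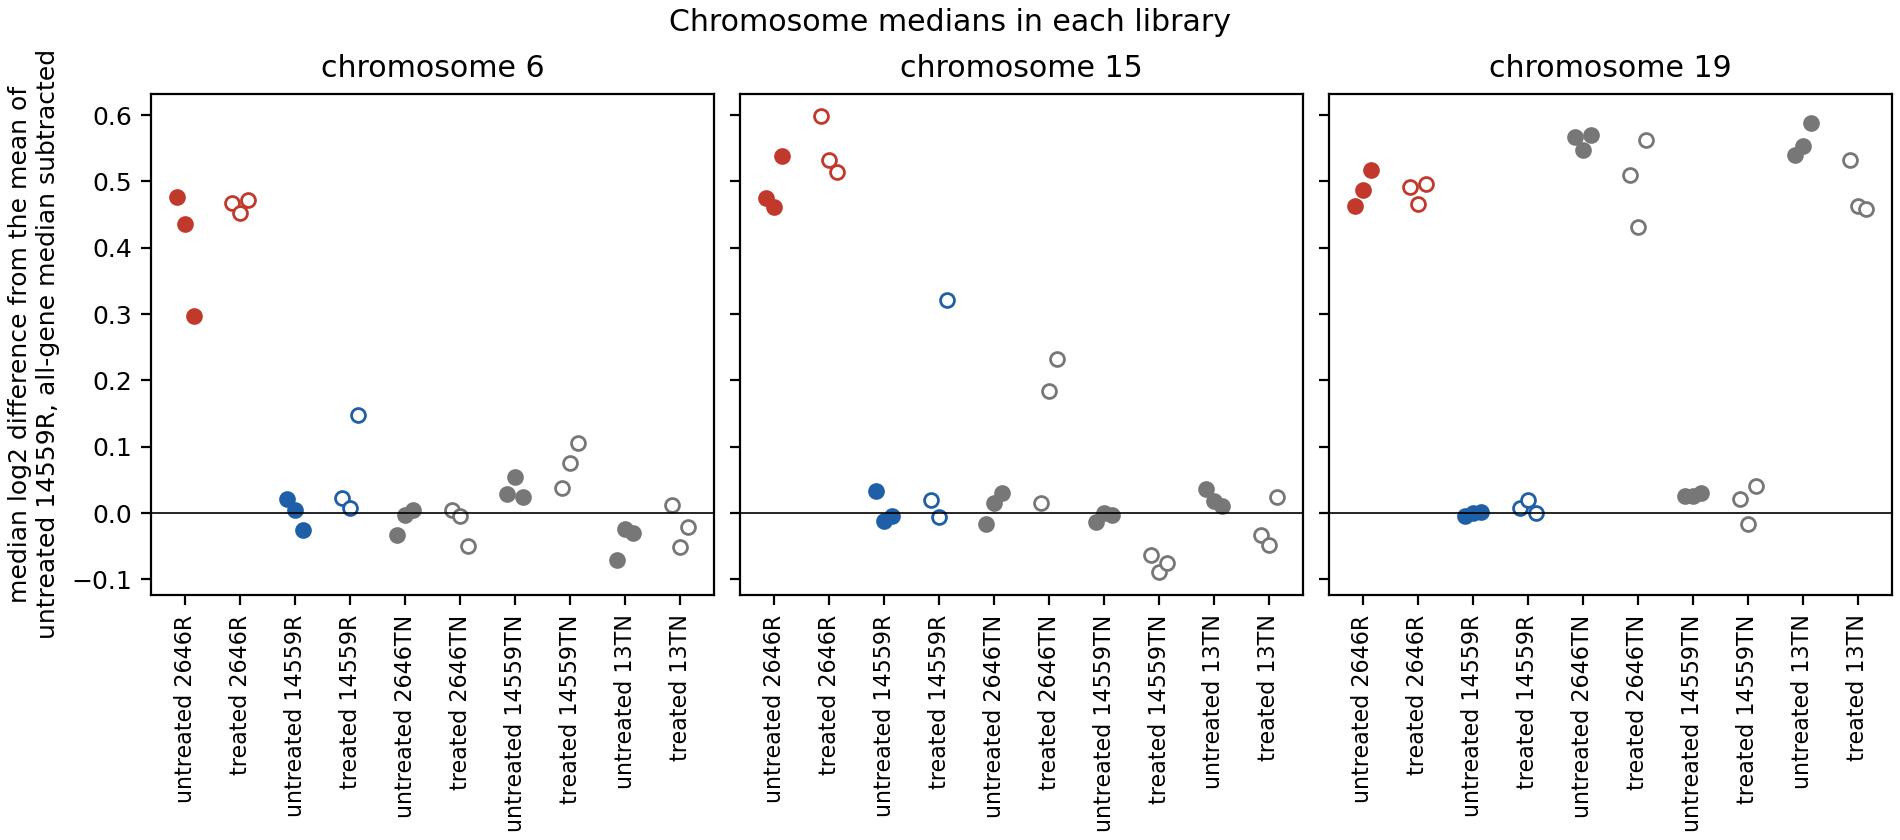
Median log2 difference of the genes of chromosomes 6, 15 and 19 from the mean of untreated 14559R, with the median of all genes subtracted, for each of the 30 libraries (filled, untreated; open, treated). Red points (2646R) lie between 0.30 and 0.60 in all 3 panels. Blue points (14559R) are near 0 apart from 1 treated library, at 0.32 on chromosome 15 and 0.15 on chromosome 6. Among the grey clones 2646TN and 13TN are high on chromosome 19 and 14559TN is not.

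The largest differences in favour of 2646R were genes with no count in 14559R. The 12 largest were Uty, Shox2, Eya1, Kdm5d, Map2, Ddx3y, Fam84b, Adgra1, Lmo1, Gm15050, Miga1 and Ephb4. For 11 of them no count fell in any 14559R library, and against a floor of 3 counts over the group they were at least 20.8-fold to at least 166-fold higher. All 12 were also called higher in treated 2646R and 10 in 2646TN. For all 1356 genes called higher, these shares were 43.3% and 20.8%. Shox2, a homeobox factor of limb and heart development, was at 39.9, 35.7 and 27 CPM in 2646R and 0 CPM in every 14559R library, at least 145-fold higher. Eya1, a phosphatase and transcriptional coactivator of neural crest and placode development, was at 39.5, 31.7 and 27.6 CPM in 2646R and 0 CPM in every 14559R library, at least 139-fold higher. In both genes all 3 libraries of 2646R carried the transcript and all 3 of 14559R were at 0. Map2, a microtubule protein of neurons, was at 25.1, 32.7 and 33.9 CPM in 2646R and 0 CPM in every 14559R library, at least 125-fold higher. Lmo1, a LIM-only transcriptional cofactor, was at 8.64, 7.58 and 11.2 CPM in 2646R and 0 CPM in every 14559R library, at least 37.4-fold higher. Ephb4, an ephrin receptor kinase, was at 2.36, 2.6 and 11.5 CPM in 2646R and 0 CPM in every 14559R library, at least 20.8-fold higher, with most of its counts in 1 library. The adhesion receptor Adgra1 was at 15.1, 9.47 and 4.64 CPM in 2646R and 0 CPM in every 14559R library, and its difference between the R clones exceeded that between the TN clones (log2 difference 6.47, adjusted p = 0.0148). Miga1, which acts in mitochondrial fusion, was at 8.45, 5.68 and 5.46 CPM in 2646R and 0 CPM in every 14559R library. Fam84b on chromosome 15 was at 18.3, 7.58 and 7.38 CPM in 2646R and 0 CPM in every 14559R library, and Gm15050 on chromosome 6 at 8.84, 5.68 and 8.47 CPM in 2646R and 0 CPM in every 14559R library.

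Genes of the Y chromosome stood among them. Of 4 Y-linked genes tested, 3 were called higher in 2646R. Ddx3y, an RNA helicase, was at 169, 178 and 125 CPM in 2646R and 0, 0.231 and 0.733 CPM in 14559R (log2 fold change 8.80 ± 0.33 SE, adjusted p = 1.08e-19). Uty, a histone demethylase homologue, was at 38.3, 47.6 and 33.6 CPM in 2646R and 0 CPM in every 14559R library, at least 166-fold higher. Kdm5d, a histone demethylase, was at 39.7, 35 and 16.4 CPM in 2646R and 0 CPM in every 14559R library, at least 131-fold higher. In 14559R, 4 counts of Ddx3y and none of Uty or Kdm5d were found over the 3 libraries together. Of 9 Y-linked genes listed, 4 had a count in the 6 libraries. Their levels summed to 175 to 261 CPM in 2646R and 0.462 to 0.748 CPM in 14559R, which in 14559R was not all Ddx3y. Ddx3y, Uty and Kdm5d were also higher in treated 2646R than in treated 14559R and higher in 2646TN than in 14559TN. In the TN pair the log2 fold changes were 7.63, adjusted p = 3.12e-18 for Ddx3y, 7.41, adjusted p = 1.97e-12 for Uty and 7.62, adjusted p = 4.15e-10 for Kdm5d.

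In the other direction, the 12 largest differences were also genes with no count in 2646R. These were Dlk1, Grb10, A830036E02Rik, Syce2, Lama2, Gm43489, Tubg2, Gprasp2, Adcy3, Shc2, Brinp3 and Grm7, at least 27.1-fold to at least 128-fold lower. Of the 12, 11 were also called lower in treated 2646R and 3 in 2646TN. For all 1374 genes called lower, these shares were 47.1% and 22.3%. Dlk1, a paternally expressed imprinted gene for a Notch-like surface protein, was at 0 CPM in every 2646R library and 19.9, 36.5 and 31.5 CPM in 14559R, at least 128-fold lower. Tubg2, a gamma-tubulin, was at 0 CPM in every 2646R library and 7.48, 12.9 and 10.7 CPM in 14559R, at least 45.2-fold lower, and was lower in 2646TN as well (log2 fold change -4.67, adjusted p = 6.39e-05). Adcy3, an adenylyl cyclase that makes cyclic AMP, was at 0 CPM in every 2646R library and 10.7, 8.09 and 9.53 CPM in 14559R, at least 40.7-fold lower. In each of these 3 genes, all 14559R libraries carried the transcript at like levels. Shc2, an adaptor of receptor tyrosine kinases, was at 0 CPM in every 2646R library and 11.7, 5.55 and 8.8 CPM in 14559R, at least 37.2-fold lower, and Syce2, a protein of the meiotic synaptonemal complex, at 0 CPM in every 2646R library and 23.2, 11.6 and 11.2 CPM in 14559R, at least 65.8-fold lower. Gprasp2 was at 0 CPM in every 2646R library and 6.23, 19 and 5.62 CPM in 14559R. Gm43489 was at 0 CPM in every 2646R library and 5.73, 10.4 and 15.9 CPM in 14559R. A830036E02Rik was at 0 CPM in every 2646R library and 17.7, 20.8 and 10.7 CPM in 14559R. Brinp3 was at 0 CPM in every 2646R library and 5.24, 4.85 and 14.4 CPM in 14559R. Grm7, a glutamate receptor on chromosome 6, was at 0 CPM in every 2646R library and 6.48, 2.77 and 9.77 CPM in 14559R. Grb10 and Lama2 rested on fewer libraries. Grb10, an imprinted adaptor that restrains insulin and growth factor signalling, was at 0 CPM in every 2646R library and 0.249, 43.5 and 11 CPM in 14559R. Lama2, a laminin chain of basement membranes, was at 0 CPM in every 2646R library and 0.748, 38.4 and 1.22 CPM in 14559R. Without replicate 2 of 14559R, which held most of the Lama2 counts, the fitted log2 fold change of Lama2 went from -8.76 to -5.02 (adjusted p = 0.0255) and that of Grb10 from -9.20 to -7.50 (adjusted p = 0.0127). With 1 group at 0, these fitted values depend on the prior count.

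Extracellular matrix transcripts were lower in 2646R. Of 23 tested collagens, 13 were lower and none higher, where 10.3% and 10.2% of all tested genes were. Their median log2 fold change was -0.97 against 0.01 for all genes. By DESeq2, or at an unadjusted p under 0.05 in edgeR, 0 collagens were higher as well. Of 31 proteoglycan, elastic fibre and matricellular genes, 12 were lower and 1 higher (median -0.78), and of 28 matrix proteases and their inhibitors, 13 were lower and 2 higher (median -0.68). Without replicate 1 of 2646R the lower counts were 11, 8 and 11. Counts on collagens summed to 10646 to 13456 CPM in 2646R and 19087 to 24458 CPM in 14559R, so the groups did not overlap.

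Col15a1, a basement membrane collagen, had the largest fold change of the 13, at 34.4, 47.1 and 40.4 CPM in 2646R and 815, 915 and 1224 CPM in 14559R (log2 fold change -4.60 ± 0.36 SE, adjusted p = 8.12e-09). The highest 2646R library was far below the lowest 14559R library. Col3a1, a fibrillar collagen of soft tissue, was at 578, 926 and 1234 CPM in 2646R and 3297, 4864 and 3097 CPM in 14559R (log2 fold change -2.04 ± 0.26 SE, adjusted p = 3.47e-06). Col5a1, which sets the diameter of collagen fibrils, was at 259, 367 and 505 CPM in 2646R and 862, 1051 and 1032 CPM in 14559R (log2 fold change -1.38 ± 0.17 SE, adjusted p = 6.61e-07). Among the chains of the microfibrillar collagen VI, Col6a1 was at 287, 305 and 334 CPM in 2646R and 492, 658 and 705 CPM in 14559R. Col6a2 was at 184, 279.6 and 309.8 CPM in 2646R and 608, 855 and 783 CPM in 14559R. Col6a3 was at 1448, 1754 and 1827 CPM in 2646R and 4280, 4018 and 4148 CPM in 14559R, and all 3 were lower with no overlap (log2 fold changes -1.001, -1.54 and -1.31). Collagen I did not follow. Col1a1 was at 704, 1006 and 1565 CPM in 2646R and 1007, 2605 and 1493 CPM in 14559R (log2 fold change -0.64 ± 0.35 SE, adjusted p = 0.221). Col1a2, on chromosome 6, was at 4467, 4190 and 4245 CPM in 2646R and 3880, 5077 and 4757 CPM in 14559R (log2 fold change -0.09 ± 0.26 SE, adjusted p = 0.854), with overlapping groups in both. In treated tumours, Col1a1 was higher in 2646R (log2 fold change 1.08, adjusted p = 0.0278), a change of the difference with treatment of 1.72, adjusted p = 0.0368. Without the filter on low counts Col1a1 passed the test in untreated tumours (log2 fold change -0.66, adjusted p = 5.14e-05).

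Among proteoglycans, Dcn, the collagen-binding decorin, was at 93.5, 57.8 and 80.3 CPM in 2646R and 1945, 770.3 and 1681 CPM in 14559R (log2 fold change -4.24 ± 0.39 SE, adjusted p = 1.36e-07). Lum, its relative lumican, was at 0.196, 1.89 and 0.273 CPM in 2646R and 97.7, 106 and 73.5 CPM in 14559R (log2 fold change -6.85 ± 0.71 SE, adjusted p = 3.45e-07). All 2646R libraries were far below all 14559R libraries in both, the closest levels being 93.5 against 770.3 CPM for Dcn and 1.89 against 73.5 CPM for Lum. Fbn2, a microfibril protein, was at 82.3, 61.3 and 29.2 CPM in 2646R and 873, 583 and 809 CPM in 14559R (log2 fold change -3.70 ± 0.28 SE, adjusted p = 1.27e-09). Sparc, a matricellular protein that binds collagen, was at 1476, 1726 and 2496 CPM in 2646R and 4331, 4069 and 5068 CPM in 14559R (log2 fold change -1.24 ± 0.15 SE, adjusted p = 1.91e-07). Sparcl1, its relative, was at 1570, 1991 and 1489 CPM in 2646R and 4198, 5828 and 4269 CPM in 14559R (log2 fold change -1.50 ± 0.26 SE, adjusted p = 0.000224). Emilin2 was at 1.18, 5.44 and 3.55 CPM in 2646R and 29.9, 30.7 and 26.6 CPM in 14559R (log2 fold change -3.13 ± 0.35 SE, adjusted p = 7.84e-08). Eln, the elastin gene, was high in a single library, at 0.982, 0.473 and 0 CPM in 2646R and 1.75, 43.5 and 0.733 CPM in 14559R. Its call (log2 fold change -4.78 ± 1.44 SE, adjusted p = 0.022) ended without that library, replicate 2 of 14559R (-1.19, adjusted p = 0.693), and also, at adjusted p = 0.0587 to 0.0686, without any 1 of the 2646R libraries.

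More proteases and inhibitors were lower than higher. Mmp3, stromelysin 1, was at 16.1, 49 and 68 CPM in 2646R and 469, 492 and 525 CPM in 14559R (log2 fold change -3.50 ± 0.46 SE, adjusted p = 1.25e-05). Mmp2, gelatinase A, was at 152, 162 and 191 CPM in 2646R and 351, 704 and 410.4 CPM in 14559R (log2 fold change -1.54 ± 0.25 SE, adjusted p = 8.73e-05). Adamts1, a protease of proteoglycans, was at 94.3, 120.3 and 143 CPM in 2646R and 249.8, 419 and 271 CPM in 14559R (log2 fold change -1.40 ± 0.21 SE, adjusted p = 2.51e-05). Mmp19 was at 15.1, 33.4 and 29.8 CPM in 2646R and 91.2, 105 and 84.3 CPM in 14559R (log2 fold change -1.86 ± 0.29 SE, adjusted p = 5.12e-05). None of these 4 genes overlapped between the clones. The inhibitor Timp1 was at 375, 414 and 455 CPM in 2646R and 804, 736 and 853 CPM in 14559R (log2 fold change -0.95 ± 0.19 SE, adjusted p = 0.000587). Timp3 was at 732, 693 and 676 CPM in 2646R and 891, 4052 and 1177 CPM in 14559R (log2 fold change -1.54 ± 0.37 SE, adjusted p = 0.00511), but the call ended without replicate 2 of 14559R (log2 fold change -0.59, adjusted p = 0.0558) and in the fit of these 6 libraries alone (adjusted p = 0.22). There were 2 genes that went the other way. Mmp9, gelatinase B, was at 498, 791 and 1415 CPM in 2646R and 125, 165 and 411 CPM in 14559R (log2 fold change 1.95 ± 0.45 SE, adjusted p = 0.00358). Adamts4, an aggrecanase, was at 104, 72 and 111 CPM in 2646R and 41.6, 62.4 and 46.7 CPM in 14559R (log2 fold change 0.93 ± 0.20 SE, adjusted p = 0.000892). The Mmp9 call was not reached in the fit of these 6 libraries alone (adjusted p = 0.138).

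**Figure D3:**
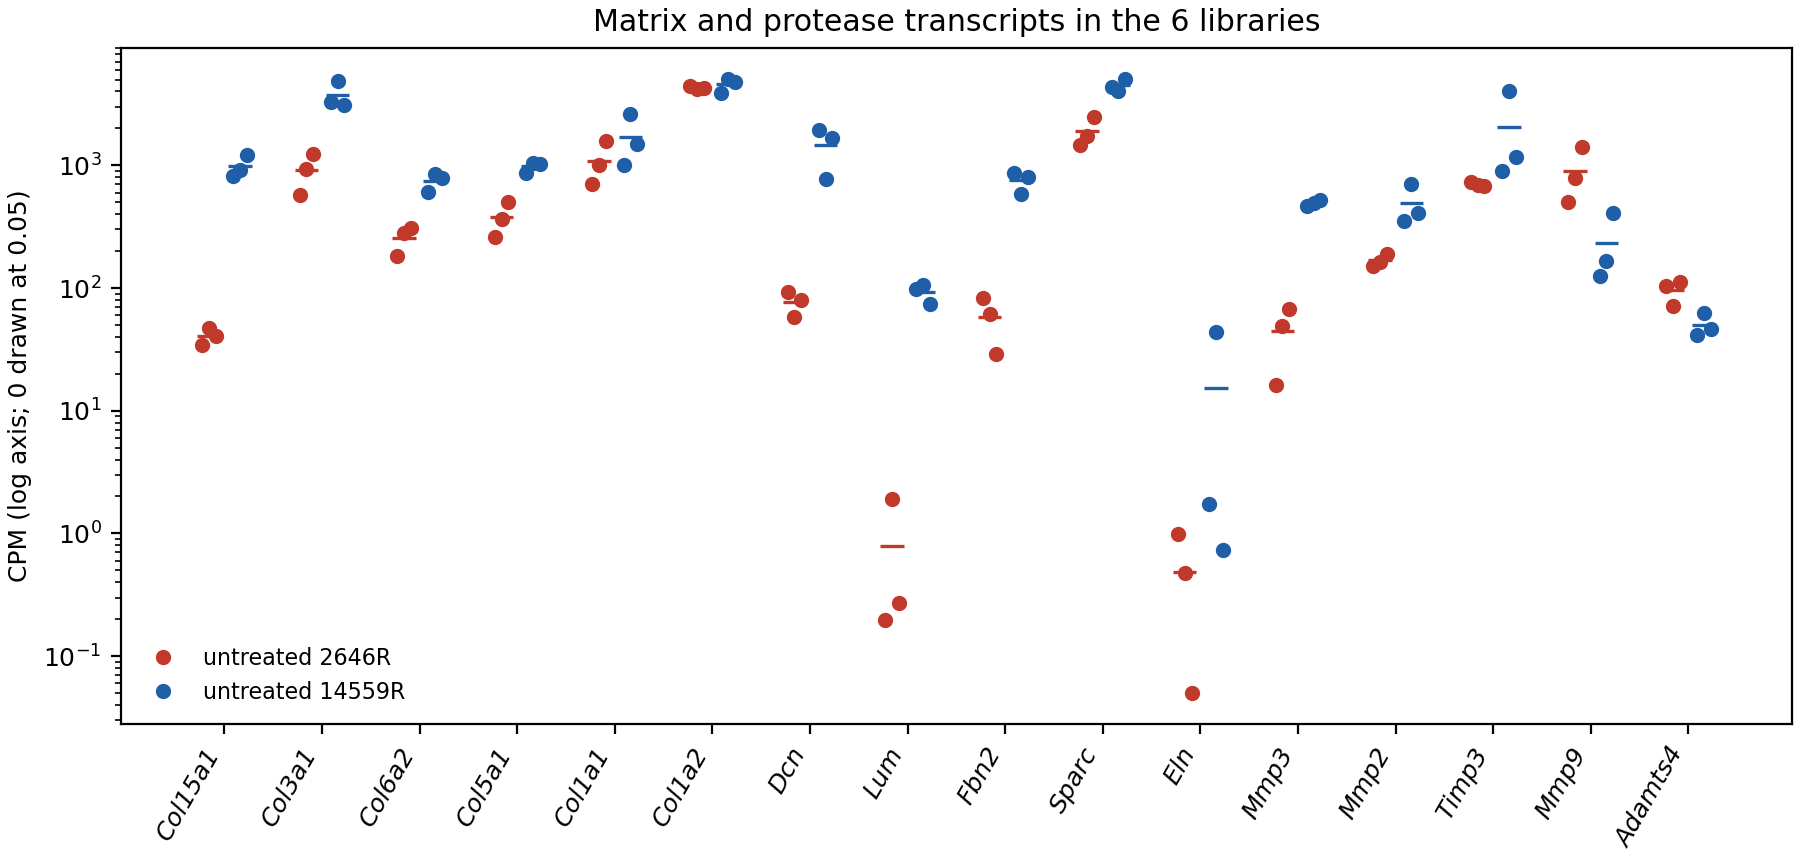
Level of 16 matrix, protease and inhibitor transcripts in each of the 3 untreated 2646R (red) and 3 untreated 14559R (blue) libraries, in CPM on a log axis; a line marks the group mean and a level of 0 is drawn at 0.05. Col15a1, Dcn, Lum, Fbn2 and Mmp3 are separated by the widest gaps, Col1a1 and Col1a2 overlap, Eln and Timp3 have 1 high library, and Mmp9 and Adamts4 are higher in 2646R.

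The matrix difference was partly shared by the TN pair. Over all tested genes, 10.1% were higher and 8.76% lower in 2646TN, and 16.6% differed between the R and TN comparisons. Of the 23 collagens, 3 were higher and 8 lower in 2646TN, and 8 differed between those comparisons. Col15a1 was one of them: it was higher in 2646TN (log2 fold change 1.04, adjusted p = 0.0249) and lower in 2646R, a difference of -5.64, adjusted p = 7.69e-08. Fbn2 was lower in both comparisons (-4.16, adjusted p = 4.19e-10 in the TN pair), as was Dcn (-2.81, adjusted p = 1.61e-05), while Lum gave -0.50, adjusted p = 0.705. Mmp2 was lower in 2646TN by more than in 2646R (difference of the log2 fold changes 1.76, adjusted p = 0.00138). In treated tumours, 11 collagens were lower and 2 higher in 2646R, where 14% and 13.1% of all tested genes were.

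A list of 13 fibroblast markers moved with these genes: 8 of 12 tested were lower in 2646R, where 10.3% of all tested genes were. The markers' summed level was 7374 to 9060 CPM in 2646R and 14840 to 17779 CPM in 14559R. Of the 13 markers, 6 are the matrix genes Col1a1, Col1a2, Col3a1, Col6a3, Dcn and Lum. No marker was at 0 in all 6 libraries. Among those that are not matrix genes, Pdgfra was at 60.9 to 94.5 CPM in 2646R and 194 to 276 CPM in 14559R and Fap at 16.5 to 24.4 and 42.5 to 72.8 CPM, with no overlap in either. Ly6c1, on chromosome 15, was at 2.16 to 9.29 and 5.78 to 8.73 CPM. Of the rest, Dpt was at 0 to 1.42 CPM in 2646R and 4.15 to 9.71 CPM in 14559R, Pi16 at 0 to 1.18 and 2.77 to 7.23 CPM, Thy1 at 1.66 to 3.73 and 1.16 to 4.24 CPM, and Clec3b at 0.82 CPM or less in every library. Their part in the matrix result was not tested, and fewer cells of a type cannot be told apart from less RNA per cell. Endothelial markers summed to 73.8 to 100 CPM in 2646R and 148 to 218 CPM in 14559R. Only Plvap of 8 tested was called, lower in 2646R, and Pecam1 was at 1.18 to 2.37 and 1.22 to 5.98 CPM. None of 15 tested macrophage markers was called by edgeR, 1 had an unadjusted p under 0.05 and 1 was called by DESeq2.

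Genes of the amino acid response were higher in 2646R. This response is set off when amino acids run short or the endoplasmic reticulum is stressed: the kinases that sense this slow translation, the transcription factor Atf4 is made from its existing mRNA, and it binds, as a dimer with C/EBP proteins, to sites of the form TGATGNAA before genes for amino acid synthesis, transport and tRNA charging. Such sites lay in the promoters of several of the genes that rose. The 4 windows below are shown because each holds that motif (capitals, on either strand) before the annotated start of a gene called higher here. They are RefSeq sequences of GRCm38.p6, written 5′ to 3′ on the gene's strand.
Asns: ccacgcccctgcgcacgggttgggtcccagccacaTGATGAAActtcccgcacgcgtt
Nupr1: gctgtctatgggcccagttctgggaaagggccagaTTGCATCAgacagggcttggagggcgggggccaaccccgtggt
Vldlr: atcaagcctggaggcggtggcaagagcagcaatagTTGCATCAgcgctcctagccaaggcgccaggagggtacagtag
Aars: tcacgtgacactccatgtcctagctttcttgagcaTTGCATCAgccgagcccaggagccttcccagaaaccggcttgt
The Asns window is chr6:7693210-7693267 (minus strand), with the motif 23 to 16 bases before the start. The Nupr1 window is chr7:126625538-126625615 (minus strand), with the motif 110 to 103 bases before the start. The Vldlr window is chr19:27216785-27216862 (plus strand), with the motif 200 to 193 bases before the start. The Aars window is chr8:111033695-111033772 (plus strand), with the motif 112 to 105 bases before the start.
The search read TGATGNAA and its reverse complement TTNCATCA from 250 bases before to 50 bases after each start. It was met in 12 of the 35 list members with a promoter in the table (34.3%), in 6 of the 17 called higher (35.3%), in 5 of the 16 tested and not called (31.2%), and in 4.51% of all 27025 genes of the table or 2.71% of the 9468 tested ones. A match is a run of letters and no evidence of binding.

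Of 40 tested genes of this response, 21 were higher in 2646R and none lower (0 also by DESeq2 and at an unadjusted edgeR p under 0.05), with a median log2 fold change of 0.77. By comparison, 10.2% of all tested genes were higher and 10.3% lower. With each chromosome's own median taken off, a step chosen after the data were seen, the median was 0.71, and 7 of the 21 lay on chromosomes 6, 15 and 19. Fewer members passed when a library was left out: 12 without replicate 1 of 2646R, 13 without replicate 1 and 12 without replicate 2 of 14559R. Ddit3, the stress-induced factor CHOP, was at 647, 468 and 522 CPM in 2646R and 244, 203 and 192 CPM in 14559R (log2 fold change 1.36 ± 0.25 SE, adjusted p = 0.000285). Aldh1l2, a mitochondrial folate enzyme, was at 39.1, 54 and 59 CPM in 2646R and 12.2, 7.86 and 3.91 CPM in 14559R (log2 fold change 2.66 ± 0.53 SE, adjusted p = 0.000719). Psph, the last enzyme of serine synthesis, was at 42.4, 30.1 and 48.6 CPM in 2646R and 13, 13.2 and 13.4 CPM in 14559R (log2 fold change 1.61 ± 0.28 SE, adjusted p = 6.91e-05). In all 3 genes every 2646R library lay above every 14559R library. Nupr1, a stress-induced chromatin protein, was at 488, 326 and 422 CPM in 2646R and 219.6, 194 and 151 CPM in 14559R (log2 fold change 1.13 ± 0.20 SE, adjusted p = 0.000127). Vldlr, a lipoprotein receptor on chromosome 19, was at 66.2, 76.9 and 91.8 CPM in 2646R and 25.7, 23.3 and 28.3 CPM in 14559R (log2 fold change 1.599 ± 0.36 SE, adjusted p = 0.0025). Slc3a2, the heavy chain of amino acid exchangers, on chromosome 19, was at 805, 711 and 969 CPM in 2646R and 451, 519 and 489.6 CPM in 14559R (log2 fold change 0.77 ± 0.17 SE, adjusted p = 0.00181). Gars, glycyl-tRNA synthetase, on chromosome 6, was at 637, 522 and 585 CPM in 2646R and 335, 228 and 359 CPM in 14559R (log2 fold change 0.92 ± 0.21 SE, adjusted p = 0.00189).

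Several calls were near the threshold although their groups did not overlap. Asns, asparagine synthetase, on chromosome 6, was at 294, 196 and 273 CPM in 2646R and 108, 79.8 and 116 CPM in 14559R (log2 fold change 1.33 ± 0.41 SE, adjusted p = 0.0245). Trib3, a pseudokinase that feeds back on Atf4, was at 209.6, 163 and 220.4 CPM in 2646R and 58.6, 47.4 and 60.8 CPM in 14559R (log2 fold change 1.83 ± 0.53 SE, adjusted p = 0.0171). Mthfd2, of mitochondrial one-carbon metabolism, on chromosome 6, was at 586, 462 and 470.1 CPM in 2646R and 199.7, 158 and 219 CPM in 14559R (log2 fold change 1.40 ± 0.37 SE, adjusted p = 0.00956). Psat1, of serine synthesis, on chromosome 19, was at 306, 303 and 402 CPM in 2646R and 189, 144 and 188 CPM in 14559R (log2 fold change 0.96 ± 0.30 SE, adjusted p = 0.0242). Aars, alanyl-tRNA synthetase, was at 336, 268 and 365 CPM in 2646R and 226, 157 and 249 CPM in 14559R (log2 fold change 0.62 ± 0.19 SE, adjusted p = 0.0192). Each of these 5 lost its call in at least 1 fit without a library: Asns and Psat1 without any 1 library other than replicate 2 of 2646R (adjusted p = 0.0536 to 0.108 and 0.051 to 0.114), and Mthfd2 without replicate 2 of 14559R (0.0542). Trib3 lost it without any 1 of the 14559R libraries or replicate 1 of 2646R (0.0504 to 0.0718), and Aars without replicate 2 of 14559R or replicate 1 or 3 of 2646R (0.0789 to 0.16). Atf4 itself, on chromosome 15, was at 1255, 1189 and 1549 CPM in 2646R and 1006, 806 and 847 CPM in 14559R (log2 fold change 0.59 ± 0.28 SE, adjusted p = 0.141). Chac1, a glutathione-degrading enzyme, was at 33.4, 28.4 and 26.5 CPM in 2646R and 24.7, 15.3 and 14.9 CPM in 14559R (log2 fold change 0.69 ± 0.45 SE, adjusted p = 0.306). Atf4 passed in the fit of these 6 libraries alone (log2 fold change 0.58, adjusted p = 0.0162). Chaperones of the unfolded protein response did not move with this group: of 20 tested, none was higher by edgeR or DESeq2 (2 at an unadjusted p under 0.05) and 3 were lower, and Hspa5, the main chaperone of the endoplasmic reticulum, was at 2110, 2022 and 2434 CPM in 2646R and 2828, 2347 and 2257 CPM in 14559R (log2 fold change -0.18 ± 0.12 SE, adjusted p = 0.336).

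With treatment, the response went the other way. Among the same 40 genes, 3 were higher and 14 lower in treated 2646R than in treated 14559R (median log2 fold change -0.47), and for 20 of the 40 the difference between the clones differed between treated and untreated tumours. Over all tested genes, 13.1% were higher and 14% lower in treated 2646R, and 8.38% differed with treatment. Ddit3 was at 47.3 ± 3.95 CPM in 2646R and 185 ± 72.8 CPM in 14559R (mean ± SD, n = 3 each) in treated tumours, a log2 fold change of -1.97, adjusted p = 3.1e-06 and a change of the difference of -3.33, adjusted p = 2.84e-06. Trib3 was at 4.94 ± 1 CPM in 2646R and 32.6 ± 26.6 CPM in 14559R (mean ± SD, n = 3 each) (log2 fold change -2.69, adjusted p = 0.00424), a change of -4.52, adjusted p = 0.00201. Aldh1l2 changed by -4.39, adjusted p = 0.00112 and Vldlr by -2.58, adjusted p = 0.00324. The difference in Psph was not called different between treatments (-0.79, adjusted p = 0.233). In the untreated TN pair, 6 of the 40 were higher and 1 lower in 2646TN, with Psph (log2 fold change 1.99, adjusted p = 9.31e-06) and Nupr1 (0.91, adjusted p = 0.00122) among the higher ones. There, 10.1% of all tested genes were higher and 8.76% lower. For Ddit3 the R clones differed more than the TN clones (1.26, adjusted p = 0.015).

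**Figure D4:**
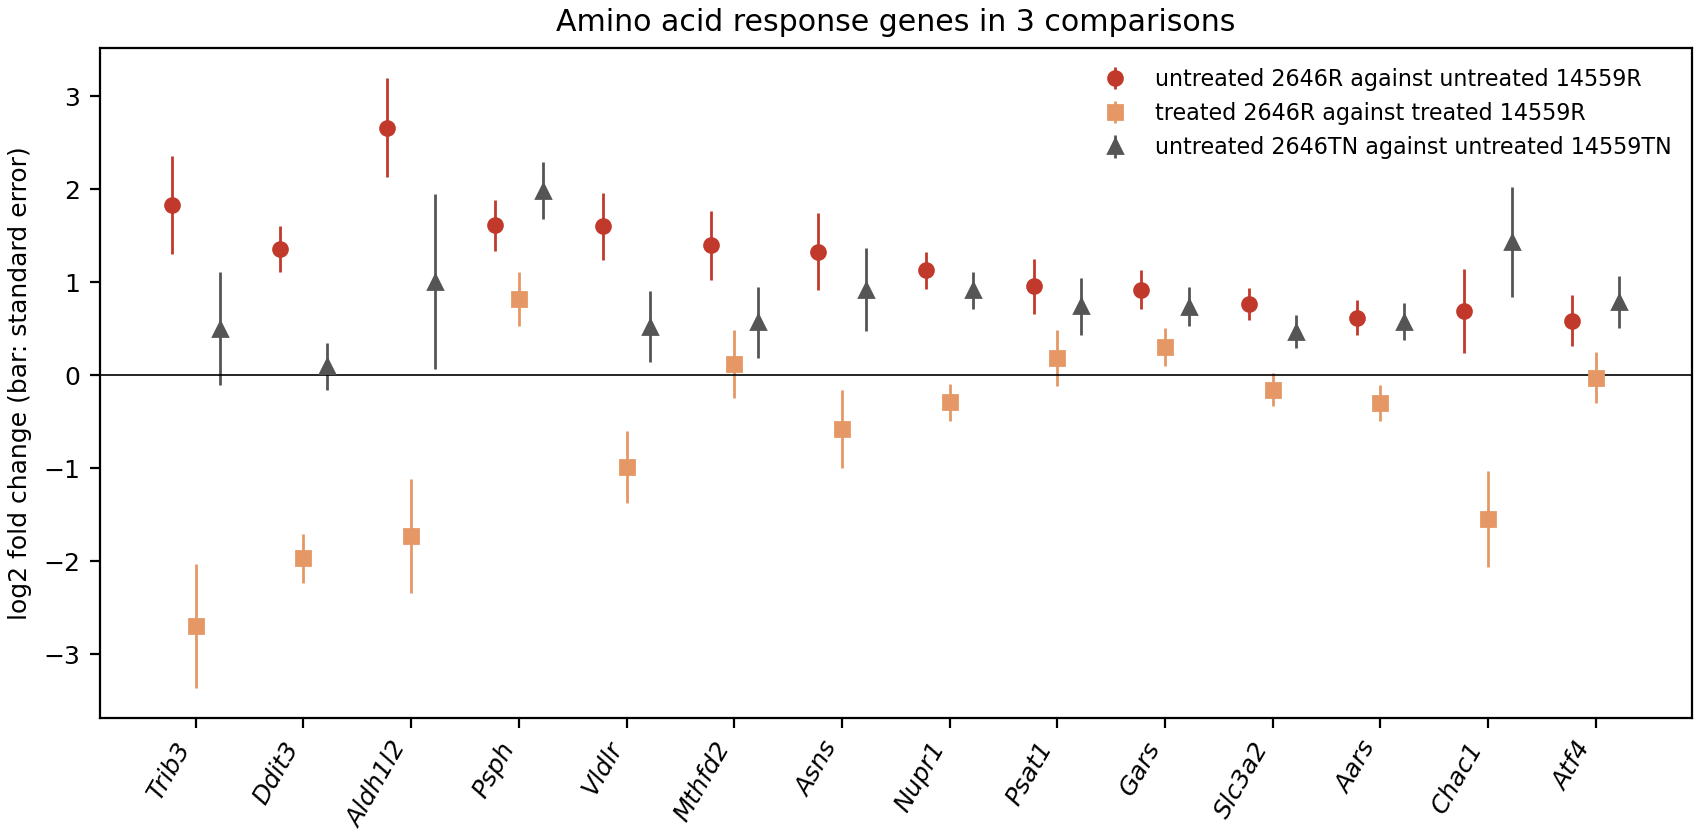
Log2 fold change (point) with its standard error (bar, back-calculated from the F statistic) of 14 amino acid response genes in the untreated R pair (red), the treated R pair (orange) and the untreated TN pair (grey). All 14 points of the untreated R pair are above 0 (12 called, Chac1 and Atf4 not), and Trib3, Ddit3, Aldh1l2 and Chac1 are called lower in treated 2646R.

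Transcripts that report ERK signalling were split. Of 23 tested, 6 were higher and 7 lower in 2646R (median log2 fold change -0.07), against 10.2% and 10.3% of all tested genes. Without replicate 1 of 2646R 4 were lower. Feedback inhibitors were found on both sides. Spred1 was lower, at 145, 172 and 141 CPM in 2646R and 301, 355 and 315 CPM in 14559R (log2 fold change -1.08 ± 0.13 SE, adjusted p = 2.57e-07), as was Spry2, at 62.1, 58.7 and 73.2 CPM in 2646R and 121, 97.6 and 95.8 CPM in 14559R (log2 fold change -0.70 ± 0.15 SE, adjusted p = 0.000797). The ERK phosphatases Dusp4, at 78.6, 43.6 and 46.7 CPM in 2646R and 29.2, 20.8 and 17.8 CPM in 14559R (log2 fold change 1.32 ± 0.30 SE, adjusted p = 0.00149), and Dusp5, at 115, 94 and 86.3 CPM in 2646R and 48.4, 37 and 42.8 CPM in 14559R (log2 fold change 1.21 ± 0.29 SE, adjusted p = 0.00364), were higher. Dusp5 lies on chromosome 19. Dusp6, the cytoplasmic ERK phosphatase, was lower, at 127, 159 and 130.3 CPM in 2646R and 309, 502 and 241 CPM in 14559R (log2 fold change -1.34 ± 0.43 SE, adjusted p = 0.0318). Spry4 was at 24, 34.3 and 15 CPM in 2646R and 46.4, 37 and 37.6 CPM in 14559R (log2 fold change -0.71 ± 0.25 SE, adjusted p = 0.0418). The Dusp6 call ended without replicate 2 of 14559R or any 1 of the 2646R libraries (adjusted p = 0.0501 to 0.151) and the Spry4 call without any 1 library other than replicate 2 of 2646R (0.0507 to 0.172) and in the fit of these 6 libraries alone (0.0829). Of the ETS factors induced by ERK, Etv1 was lower, at 41.8, 76.2 and 33.6 CPM in 2646R and 131, 178 and 117 CPM in 14559R (log2 fold change -1.49 ± 0.21 SE, adjusted p = 9.8e-06), Etv5 was higher, at 60.5, 60.8 and 70.7 CPM in 2646R and 38.9, 35.8 and 36.9 CPM in 14559R (log2 fold change 0.78 ± 0.21 SE, adjusted p = 0.00711), and Etv4 was at 93.9, 123 and 130.0 CPM in 2646R and 125, 109.8 and 128 CPM in 14559R (log2 fold change -0.07 ± 0.28 SE, adjusted p = 0.9). Myc, on chromosome 15, was higher at a low level, at 20.4, 9 and 13.4 CPM in 2646R and 3.24, 2.77 and 1.71 CPM in 14559R (log2 fold change 2.46 ± 0.49 SE, adjusted p = 0.000456), and in treated tumours its log2 fold change was -0.87, adjusted p = 0.211. Ccnd1, cyclin D1, was at 2923, 2826 and 2567 CPM in 2646R and 2269, 1593 and 2307 CPM in 14559R (log2 fold change 0.43 ± 0.18 SE, adjusted p = 0.09). For Dusp4 the difference turned with treatment: it was lower in treated 2646R (log2 fold change -1.12, adjusted p = 0.00731), a change of -2.44, adjusted p = 0.000477.

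Of the genes altered in this line, Braf, on chromosome 6, was at 98, 105 and 82.2 CPM in 2646R and 63.6, 71.2 and 64.5 CPM in 14559R (log2 fold change 0.52 ± 0.14 SE, adjusted p = 0.0083) beside a chromosome median of 0.44. Its call ended without replicate 1 of 14559R or replicate 2 of 2646R (adjusted p = 0.0523 and 0.0689). Cdkn2a was at 2.95, 3.55 and 2.19 CPM in 2646R and 1.99, 2.31 and 1.47 CPM in 14559R (log2 fold change 0.59 ± 0.54 SE, adjusted p = 0.487). The libraries read the 3′ ends of transcripts, so these levels show neither a deletion nor an allele.

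Receptor tyrosine kinases differed in both directions. Of 20 tested, 6 were higher and 6 lower, against 10.2% and 10.3% of all tested genes. Without replicate 1 of 2646R 2 were called lower and without replicate 3 of 14559R 3. Ephb2, an ephrin receptor, was at 40.9, 38.4 and 60.1 CPM in 2646R and 4.49, 6.94 and 0.977 CPM in 14559R (log2 fold change 3.47 ± 0.45 SE, adjusted p = 4.01e-06), and was higher in 2646TN too (log2 fold change 4.62, adjusted p = 3.26e-07). Met, the receptor for hepatocyte growth factor, on chromosome 6, was at 60.7, 56.3 and 40.4 CPM in 2646R and 18.9, 20.8 and 15.6 CPM in 14559R (log2 fold change 1.51 ± 0.30 SE, adjusted p = 0.0005), while its ligand Hgf was at 0, 1.66 and 0 CPM in 2646R and 10.7, 14.8 and 12.9 CPM in 14559R (log2 fold change -4.49 ± 0.57 SE, adjusted p = 6.47e-07). The receptor was thus higher and the ligand lower in every 2646R library, and neither was called in the TN pair (log2 fold change -0.23, adjusted p = 0.67 for Met and -0.98, adjusted p = 0.201 for Hgf). Pdgfra, a receptor for platelet-derived growth factors, was lower, at 60.9, 94.5 and 69.4 CPM in 2646R and 245, 276 and 194 CPM in 14559R (log2 fold change -1.67 ± 0.23 SE, adjusted p = 6.44e-06), and so was Mertk, at 90.9, 148 and 102 CPM in 2646R and 223, 203 and 217 CPM in 14559R (log2 fold change -0.92 ± 0.17 SE, adjusted p = 0.00013). Axl, a receptor of mesenchymal melanoma cells, was at 723, 822 and 771 CPM in 2646R and 811, 777 and 945 CPM in 14559R (log2 fold change -0.13 ± 0.13 SE, adjusted p = 0.513).

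Among 27 growth factor ligands and insulin-like growth factor genes tested, 10 were higher and 4 lower, beside 10.2% and 10.3% of all tested genes. Without replicate 1 of 2646R these counts were 6 and 2, and without replicate 2 of 14559R 6 were higher. The 4 lower ones were Hgf, Pdgfd, Stc1 and Igfbp4. Ptn, Bmp4, Bmp2, Inhbb and Jag1, also given here, are not among the genes of this count. Kitl, the ligand of the receptor Kit, was higher, at 66.6, 45.2 and 37.7 CPM in 2646R and 16.7, 16.6 and 20.8 CPM in 14559R (log2 fold change 1.47 ± 0.25 SE, adjusted p = 6.67e-05). Ptn, the heparin-binding growth factor pleiotrophin, on chromosome 6, was at 106, 131 and 61.2 CPM in 2646R and 2.99, 15.3 and 10.3 CPM in 14559R (log2 fold change 3.37 ± 0.45 SE, adjusted p = 1.3e-05), and was higher in 2646TN by more (log2 fold change 5.51, adjusted p = 1.62e-08; difference -2.14, adjusted p = 0.0239). Of the bone morphogenetic proteins, Bmp4 was higher, at 16.5, 7.1 and 15 CPM in 2646R and 1.99, 0.694 and 2.2 CPM in 14559R (log2 fold change 2.98 ± 0.49 SE, adjusted p = 6.12e-05), and Bmp2 lower, at 223, 248 and 244 CPM in 2646R and 651, 511 and 524 CPM in 14559R (log2 fold change -1.24 ± 0.26 SE, adjusted p = 0.00123). Inhbb, a subunit of activin, was lower, at 0.982, 5.21 and 1.91 CPM in 2646R and 49.4, 9.25 and 24.7 CPM in 14559R (log2 fold change -3.37 ± 0.65 SE, adjusted p = 0.000549). Jag1, a Notch ligand, was higher, at 135, 94.7 and 101 CPM in 2646R and 21.9, 39.1 and 23.2 CPM in 14559R (log2 fold change 1.97 ± 0.28 SE, adjusted p = 1.04e-05).

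Neural crest, pigment and mesenchymal genes did not move as groups. Of 10 pigment cell genes tested, 2 were higher and 2 lower, and of 17 neural crest and glial genes, 3 were higher and 3 lower. For all tested genes the shares were 10.2% higher and 10.3% lower. Mitf, on chromosome 6, gave log2 fold change 0.10 ± 0.24 SE, adjusted p = 0.811. Sox10, the neural crest factor, on chromosome 15, was at 5.3, 4.97 and 4.64 CPM in 2646R and 1.75, 5.09 and 51.8 CPM in 14559R, with overlapping groups and 1 high library. Its log2 fold change of -1.96 ± 0.71 SE, adjusted p = 0.0497 turned to 0.50 (adjusted p = 0.681) without that library, replicate 3 of 14559R, and the call also ended without any 1 of the 2646R libraries (0.101 to 0.133), with DESeq2 (0.0631) and in the fit of these 6 libraries alone (0.385). Aqp1, a water channel on chromosome 6, was lower, at 1218, 1827 and 1939 CPM in 2646R and 2896, 2953 and 4049 CPM in 14559R (log2 fold change -0.99 ± 0.21 SE, adjusted p = 0.000838). Ngfr, the nerve growth factor receptor, had 2 counts over the 3 libraries of 2646R and none in 14559R and was not tested. Among 24 mesenchymal factors and cadherins, 4 were higher and 5 lower. Higher were Cd44 (log2 fold change 1.06, adjusted p = 0.00941) and Wnt5a (0.81, adjusted p = 0.00252). So were Cdh6 (1.39, adjusted p = 0.00265) and Itga5 (0.87, adjusted p = 0.00686), both on chromosome 15. The 2 genes that follow are among the lower ones. Twist2, a mesenchymal transcription factor, was at 0.982, 3.79 and 1.09 CPM in 2646R and 101, 31.7 and 39.3 CPM in 14559R (log2 fold change -4.87 ± 0.57 SE, adjusted p = 9.01e-07). Prrx1 was at 356, 440.3 and 333 CPM in 2646R and 521, 696 and 526 CPM in 14559R (log2 fold change -0.63 ± 0.13 SE, adjusted p = 0.000676). Both were lower in 2646TN as well (log2 fold change -3.43, adjusted p = 0.00109 and -0.67, adjusted p = 0.000291). Of 17 contractile genes, 4 were higher and 1 lower. Acta2, smooth muscle actin, on chromosome 19, was at 90.1, 61.1 and 143 CPM in 2646R and 12.2, 15.7 and 12 CPM in 14559R (log2 fold change 2.87 ± 0.52 SE, adjusted p = 0.00045). Tnnt2, cardiac troponin T, was at 184, 108 and 111 CPM in 2646R and 11, 10.4 and 2.69 CPM in 14559R (log2 fold change 4.06 ± 0.55 SE, adjusted p = 1.19e-05). Of 5 tested markers of pericytes and smooth muscle, Acta2 and Cspg4 were higher and Pdgfrb lower in 2646R (median log2 fold change -0.94). Pdgfrb, a receptor of pericytes, was at 99.2, 160.0 and 131 CPM in 2646R and 199, 327 and 223 CPM in 14559R (log2 fold change -0.94 ± 0.29 SE, adjusted p = 0.0244), a call that ended without replicate 2 of 14559R (adjusted p = 0.125) or replicate 1 of 2646R (0.127). The levels of all markers on this list summed to 451 to 474 CPM in 2646R and 313 to 447 CPM in 14559R. Their part in the result was not tested.

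Retinoic acid, made from vitamin A, is carried to its nuclear receptors by small binding proteins. Of 16 retinoic acid pathway genes tested, 1 was higher and 5 were lower, 3 without replicate 1 of 2646R. Among all tested genes 10.2% were higher and 10.3% lower. Crabp1, which holds retinoic acid in the cytoplasm, was among the most abundant transcripts of 14559R, at 345, 713 and 791 CPM in 2646R and 4889, 5087 and 4252 CPM in 14559R (log2 fold change -2.94 ± 0.33 SE, adjusted p = 1.17e-06). Its relative Crabp2, which hands retinoic acid to the nuclear receptor, was the one higher gene, at 79.9, 58.5 and 53.3 CPM in 2646R and 11.5, 18.3 and 8.06 CPM in 14559R (log2 fold change 2.34 ± 0.34 SE, adjusted p = 8.65e-06). The pair thus went in opposite directions with no overlap in either. Dhrs3, which reduces retinal, was at 24, 20.4 and 23.5 CPM in 2646R and 74.8, 61 and 75.5 CPM in 14559R (log2 fold change -1.64 ± 0.21 SE, adjusted p = 9.22e-07). In the TN pair Crabp1 was also lower in 2646TN (log2 fold change -2.53, adjusted p = 4.91e-06), whereas Crabp2 was lower there (-2.59, adjusted p = 0.000196; difference 4.93, adjusted p = 8.92e-07) and Dhrs3 higher (2.65, adjusted p = 4.2e-11; difference -4.29, adjusted p = 1.14e-11).

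Of 16 imprinted genes tested, 6 were lower and 1 higher in 2646R, against 10.3% and 10.2% of all tested genes. Beside Dlk1 and Grb10, Peg10, a retrotransposon-derived gene expressed from the paternal allele, was at 14.1, 18.9 and 28.7 CPM in 2646R and 139, 96.4 and 145 CPM in 14559R (log2 fold change -2.64 ± 0.26 SE, adjusted p = 2.11e-08), lower although it lies on chromosome 6. Plagl1, a zinc finger factor of the imprinted growth network, was higher, at 10.0, 7.1 and 10.1 CPM in 2646R and 1.99, 0.925 and 1.95 CPM in 14559R (log2 fold change 2.47 ± 0.47 SE, adjusted p = 0.000231). Both differed from the TN pair (difference -1.75, adjusted p = 0.00231 for Peg10 and 2.72, adjusted p = 0.00228 for Plagl1).

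The type I interferon response did not separate the untreated R clones. None of 32 tested genes was called by edgeR or by DESeq2 in either direction and 2 had an unadjusted p under 0.05 (median log2 fold change -0.03), and their summed level was 206 to 659 CPM in 2646R against 400 to 462 CPM in 14559R, so the spread lay within 2646R. Stat2, a transcription factor of the response, was at 10.6, 21.8 and 14.8 CPM in 2646R and 21.4, 18.7 and 19.1 CPM in 14559R (log2 fold change -0.34 ± 0.27 SE, adjusted p = 0.422). In the TN pair, 28 of the same 32 genes were higher in 2646TN, and for 19 the R and TN comparisons differed, Stat2 (-1.59, adjusted p = 0.00299) included. Over all tested genes, 10.1% were higher in 2646TN and 16.6% differed between the comparisons. Among 22 genes of antigen presentation by major histocompatibility class I, 1 was higher and 1 lower, and B2m, the light chain, was at 1826, 3348 and 6579 CPM in 2646R and 3996, 3357 and 2628 CPM in 14559R (log2 fold change 0.24 ± 0.32 SE, adjusted p = 0.655). Its 3 levels in 2646R spanned the 3 of 14559R. Of 26 cytokine, chemokine and NF-kappaB genes tested, 1 was higher and 4 were lower, against 10.2% and 10.3% of all tested genes. The higher one was Ccl5, a chemokine for T cells and monocytes, at 3.93, 6.15 and 26.5 CPM in 2646R and 0.499, 2.77 and 2.44 CPM in 14559R (adjusted p = 0.0157, edgeR), with no overlap, and it was higher in treated 2646R too (log2 fold change 2.13, adjusted p = 0.0243). Its call ended without replicate 3 of 2646R (log2 fold change 1.33, adjusted p = 0.178), without replicate 1 of 14559R (0.0736) and in the fit of these 6 libraries alone (0.0525). Il33, an alarmin, was lower in 2646R, at 14.9, 41 and 21.3 CPM in 2646R and 564, 195 and 593 CPM in 14559R (log2 fold change -4.14 ± 0.43 SE, adjusted p = 6.12e-07), although it lies on chromosome 19, and it was higher in 2646TN (log2 fold change 1.61, adjusted p = 0.0148; difference -5.75, adjusted p = 1.76e-06). Ccl8, a chemokine for monocytes, was at 2.55, 2.6 and 4.1 CPM in 2646R and 46.1, 57.8 and 86 CPM in 14559R (log2 fold change -4.37 ± 0.57 SE, adjusted p = 7.91e-06). Il10, an anti-inflammatory cytokine, was at 0, 0.947 and 1.91 CPM in 2646R and 31.9, 14.3 and 31 CPM in 14559R (log2 fold change -4.83 ± 0.74 SE, adjusted p = 4.22e-05). Serping1, the inhibitor of complement C1, was at 2.36, 0.947 and 3.55 CPM in 2646R and 29.9, 26.4 and 24.7 CPM in 14559R (log2 fold change -3.57 ± 0.50 SE, adjusted p = 8.97e-06). Il33, Ccl8, Il10 and Serping1 were also lower in treated 2646R than in treated 14559R.

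Mitosis genes were nearly level in untreated tumours. Of all tested genes, 10.2% were higher and 10.3% lower in untreated 2646R, and 13.1% and 14% in treated 2646R. Of 28 mitosis genes, 1 was higher and 1 lower in the untreated pair. The lower one was Plk1, a mitotic kinase, at 38.1, 80.7 and 83 CPM in 2646R and 116, 89.9 and 102 CPM in 14559R (log2 fold change -0.62 ± 0.22 SE, adjusted p = 0.0482), whose call ended without replicate 1 or 3 of 14559R or replicate 1 of 2646R (adjusted p = 0.0883 to 0.311) and in the fit of these 6 libraries alone (0.123). In treated tumours 23 of the 28 were higher in 2646R, and for 17 the difference differed with treatment, against 8.38% of all tested genes. Mki67, a marker of cycling cells, was at 67.8, 104 and 42.6 CPM in 2646R and 75.5, 55.3 and 57.4 CPM in 14559R (log2 fold change 0.19 ± 0.24 SE, adjusted p = 0.623), and in treated tumours at 162 ± 8.25 CPM in 2646R and 49.3 ± 9.63 CPM in 14559R (mean ± SD, n = 3 each) (log2 fold change 1.71, adjusted p = 5.07e-06; change of the difference 1.52, adjusted p = 0.0054). Of 30 DNA replication genes, 5 were higher and 1 lower when untreated (median log2 fold change 0.21), with 2 of the 5 on chromosomes 6, 15 and 19. When treated, 27 were higher (median 1.12).

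For the lists that follow, 10.2% of all tested genes were higher and 10.3% lower in untreated 2646R. Among 24 p53 target genes, 6 were higher and 1 lower. Gadd45a, a stress gene on chromosome 6, was at 324, 149.6 and 114 CPM in 2646R and 40.1, 63.8 and 34 CPM in 14559R (log2 fold change 2.09 ± 0.35 SE, adjusted p = 0.000112). Phlda3, a repressor of AKT, was at 159.7, 150.1 and 196 CPM in 2646R and 86, 98.5 and 89.2 CPM in 14559R (log2 fold change 0.88 ± 0.14 SE, adjusted p = 3.24e-05). Cdkn1a, the cell cycle inhibitor p21, was at 482, 529 and 532 CPM in 2646R and 538, 331 and 489 CPM in 14559R (log2 fold change 0.19 ± 0.30 SE, adjusted p = 0.723), and lower in treated 2646R (log2 fold change -1.84, adjusted p = 0.000146). Of 25 targets of the oxidative stress factor NRF2, 5 were higher and 1 lower. Fth1, ferritin heavy chain, on chromosome 19, was at 2630, 2415 and 2885 CPM in 2646R and 1523, 1607 and 1216 CPM in 14559R (log2 fold change 0.87 ± 0.15 SE, adjusted p = 6.71e-05). Gclc, the rate-limiting enzyme of glutathione synthesis, was at 101, 75.8 and 82.5 CPM in 2646R and 45.1, 42.3 and 42.8 CPM in 14559R (log2 fold change 0.99 ± 0.21 SE, adjusted p = 0.000664). Abcc1, an exporter of drugs and glutathione conjugates, was at 139, 119.8 and 129 CPM in 2646R and 80.3, 53.4 and 55.2 CPM in 14559R (log2 fold change 1.04 ± 0.20 SE, adjusted p = 0.000288). None of these 3 overlapped between the clones, and in the TN pair Fth1 and Gclc were lower in 2646TN (log2 fold change -0.58, adjusted p = 0.00474 and -1.32, adjusted p = 5.66e-05). Of 31 glycolysis and hypoxia genes, 6 were higher and 2 lower in untreated tumours. In treated 2646R 25 were lower, where 14% of all tested genes were. The difference between the clones changed with treatment for 24 of the 31, against 8.38% of all tested genes. Vegfa, the angiogenic growth factor, was at 309.5, 271 and 319.9 CPM in 2646R and 227, 187 and 179 CPM in 14559R (log2 fold change 0.60 ± 0.14 SE, adjusted p = 0.00149). Hk2, hexokinase 2, on chromosome 6, was at 417, 403 and 502 CPM in 2646R and 269, 162 and 231 CPM in 14559R (log2 fold change 1.00 ± 0.22 SE, adjusted p = 0.00134). Kdm3a, a hypoxia-induced demethylase on the same chromosome, was at 89.8, 67 and 55.7 CPM in 2646R and 38.6, 27.7 and 25.2 CPM in 14559R (log2 fold change 1.22 ± 0.22 SE, adjusted p = 0.000145). Vegfa was lower in treated 2646R (log2 fold change -1.71, adjusted p = 8.74e-11), a change of -2.32, adjusted p = 2.7e-09.

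**Figure D5:**
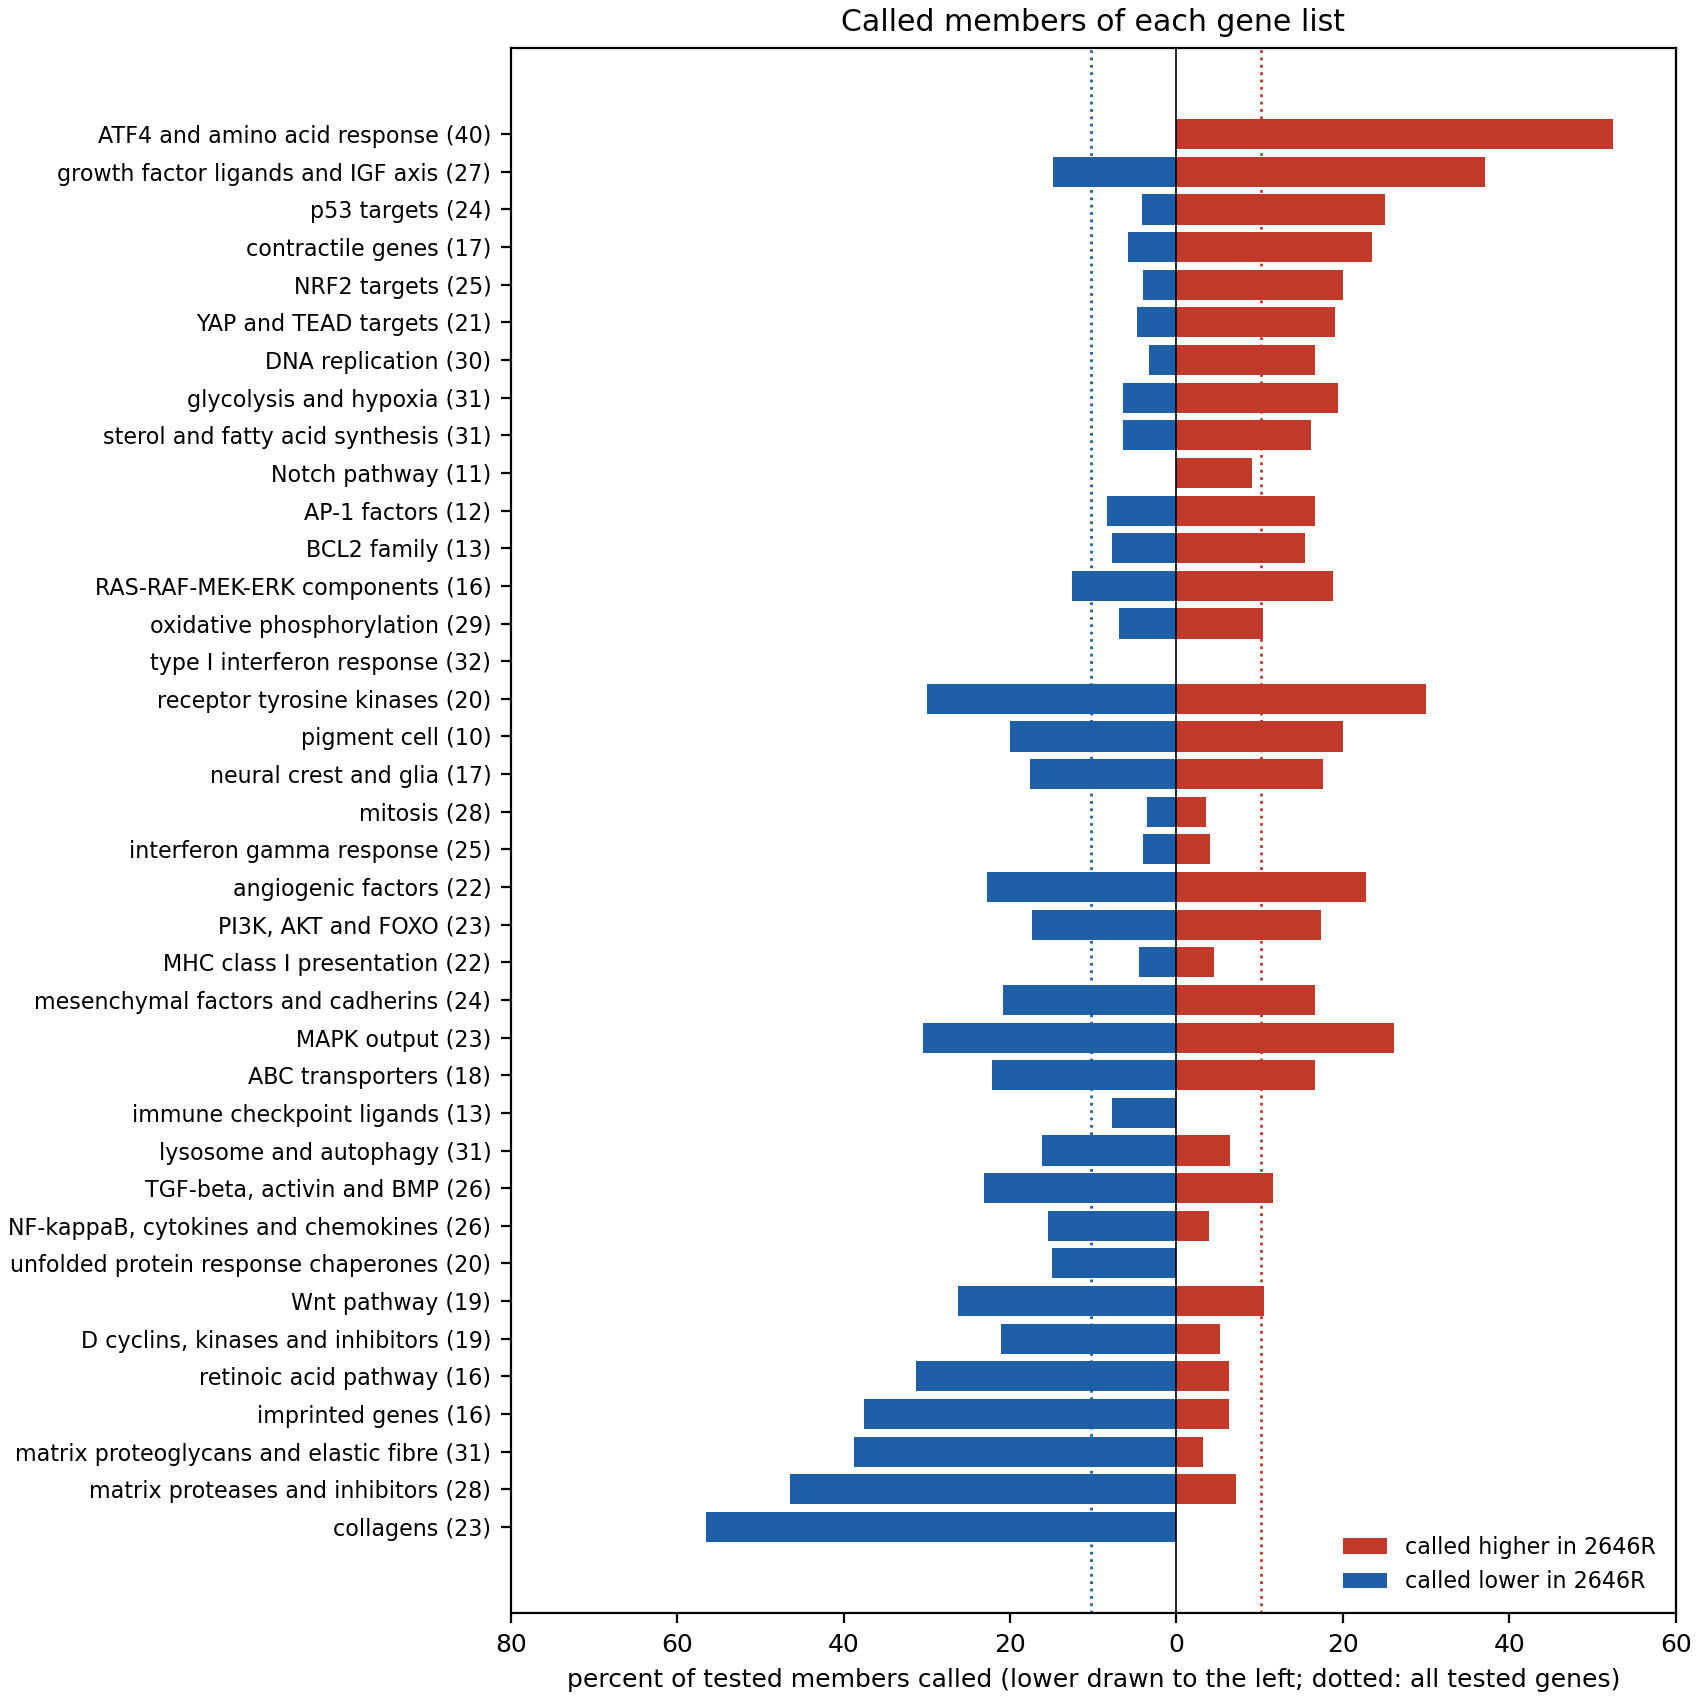
Percent of the tested members of each gene list of 10 or more that were called higher (right, red) or lower (left, blue) in untreated 2646R; the number tested is in brackets and dotted lines give the share of all tested genes, 10.2% and 10.3%. Collagens (13 of 23 lower), proteases (13 of 28) and proteoglycans (12 of 31) reach farthest to the left and the amino acid response (21 of 40 higher) farthest to the right.

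Among the 15 most abundant transcripts, 7 differed. Malat1, a nuclear non-coding RNA on chromosome 19, was at 24888, 17010 and 15874 CPM in 2646R and 10555, 11368 and 8563 CPM in 14559R (log2 fold change 0.92 ± 0.18 SE, adjusted p = 0.000288). Igfbp4, which binds insulin-like growth factors, was at 1973, 2446 and 2721 CPM in 2646R and 3446, 5806 and 3369 CPM in 14559R (log2 fold change -0.82 ± 0.23 SE, adjusted p = 0.0133). S100a6, a calcium-binding protein, was at 4085, 5076 and 4531 CPM in 2646R and 7078, 4999 and 6632 CPM in 14559R (log2 fold change -0.45 ± 0.15 SE, adjusted p = 0.0271). Lgals1, a galectin on chromosome 15, was at 4130, 4546 and 4273 CPM in 2646R and 3366, 2575 and 3503 CPM in 14559R (log2 fold change 0.46 ± 0.16 SE, adjusted p = 0.0386). Beside them stood Sparc, Sparcl1 and Col6a3, given above. The Igfbp4 call ended without replicate 2 of 14559R (adjusted p = 0.118) or replicate 1 of 2646R (0.0807). That of S100a6 ended without replicate 1 or 3 of 14559R or replicate 1 of 2646R (0.0744 to 0.121), and that of Lgals1 without any 1 of the 6 libraries (0.0507 to 0.251). Both also ended in the fit of these 6 libraries alone (0.0656 for S100a6 and 0.0517 for Lgals1).

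Among called genes with at least 5 CPM in the higher group and no overlap between the clones, the 10 whose difference between the R clones departed most from that between the TN clones were all lower in 2646R than in 14559R. They were Baiap2l1, Cacna1b, Lama2, Nefl, Nkd2, Col23a1, Stc1, Tbx15, Adcy3 and Sod3. Nefl, a neurofilament protein, was at 22.6, 21.1 and 29 CPM in 2646R and 173, 50.4 and 136 CPM in 14559R, and in the TN pair it was higher in 2646TN (log2 fold change -2.31 in the R pair and 6.66, adjusted p = 3.28e-05 in the TN pair; difference -8.97, adjusted p = 1.85e-05). Nkd2, an inhibitor of Wnt signalling, was at 0.196, 2.84 and 9.56 CPM in 2646R and 52.1, 75.4 and 60.3 CPM in 14559R (log2 fold change -4.01 against 4.90, adjusted p = 0.000156; difference -8.91, adjusted p = 1.85e-05). Tbx15, a developmental T-box factor, was at 0, 0.71 and 0.819 CPM in 2646R and 9.47, 9.71 and 8.06 CPM in 14559R (-4.19 against 3.46, adjusted p = 1.33e-06; difference -7.65, adjusted p = 1.41e-08). In these 3 genes 2646R was thus below 14559R and 2646TN above 14559TN, with calls in both. The same held for Col23a1, a transmembrane collagen, at 1.96, 0.473 and 0.273 CPM in 2646R and 29.7, 10.6 and 20.8 CPM in 14559R (-4.34 against 4.32, adjusted p = 0.000172), and for Stc1, a secreted glycoprotein hormone, at 88.6, 120.3 and 162 CPM in 2646R and 665, 203 and 357 CPM in 14559R (-1.73 against 6.46, adjusted p = 8.97e-07). The Stc1 call in the R pair ended without replicate 1 of 14559R (adjusted p = 0.0886), without replicate 1 of 2646R (0.0696) and in the fit of these 6 libraries alone (0.074). Cacna1b, a neuronal calcium channel, was at 0, 0.473 and 0.273 CPM in 2646R and 30.7, 22.2 and 35.7 CPM in 14559R. Sod3, the extracellular superoxide dismutase, was at 0.196, 0 and 0 CPM in 2646R and 9.47, 8.32 and 20.3 CPM in 14559R. From 3 and 1 counts in 2646R, the ratio of 14559R to 2646R was 127 (43.5 to 616) for Cacna1b and 164 (29.4 to 6474) for Sod3, with 95% intervals that cover counting error only. Baiap2l1, an adaptor of membrane curvature, was at 0 CPM in every 2646R library and 9.97, 4.62 and 2.44 CPM in 14559R, at least 24.4-fold lower.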

How the data were processed

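Per the labels, RNA was made into 3′ libraries with the Lexogen QuantSeq kit, and each sample's deposited file holds raw read counts per gene. Per the file headers, the authors counted reads with featureCounts 1.6.2 as fragments on 1 strand, and per the submitters' processing notes they aligned with STAR 2.6.0c to GRCm38. Where several gene identifiers share a symbol, the one with the most counts carries it here. The counts of all 30 libraries were fitted in 1 model of 10 groups with edgeR 4.0.16 (R 4.3.3): genes kept by filterByExpr (13286), TMM scaling, robust quasi-likelihood test, Benjamini-Hochberg adjustment over all tested genes, threshold 0.05. CPM are counts scaled to a common library size with TMM factors. The residual degrees of freedom were 20 and the biological coefficient of variation was 18.2%. Standard errors (SE) were back-calculated as the absolute log2 fold change divided by the square root of the quasi-likelihood F statistic. Comparisons were untreated 2646R against untreated 14559R, the same for treated tumours and for the TN clones, and the differences of these from the first. Nothing in the labels says that replicates came from separate animals, so p-values measure the spread between these tumours.

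On simulated counts for the first comparison over 13286 genes, 50 changed genes per size, 2% were recovered at 1.5-fold, 64% at 2-fold, 100% at 4-fold and 98% at 8-fold, and 3.65% of calls were false. Every simulated gene had the same biological variation, and far fewer genes were changed than the 2730 called in the data. These shares therefore describe the simulation and need not hold for the real counts.

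The groups to compare and the 50 gene lists, written from general knowledge, were chosen with earlier results of these data known. Genes named are the 12 largest called differences each way with at least 5 CPM in the higher group and no overlap, up to 4 called members of a list by adjusted p and called members against the list's majority, a set of melanoma and stress genes, the 10 largest differences from the TN comparison, and called genes among the 15 most abundant. Col6a1, Col6a2, Col1a1, Col1a2, Eln, Timp1, Timp3, Trib3, Asns, Slc3a2, Mthfd2, Psat1, Vldlr, Gars, Aars, Atf4, Chac1, Hspa5 and Bmp2, and the marker genes given with levels only, were named after their values were seen. Alternatives were median-of-ratios scaling, no filter on low counts, DESeq2 1.42.0, only the groups compared, and each library left out. Some genes that the rule names are not reported here.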

Additional observations from a re-analysis of the deposited data

Results flagged for a closer look

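The difference between 2646R and 14559R was not the same as that between 2646TN and 14559TN at 2205 genes, and not the same in treated and untreated tumours of the R clones at 1114 genes (edgeR test of the difference of differences, adjusted p under 0.05). Among the genes described above, the R difference minus the TN difference passed that test for those that follow, given as differences of log2 fold changes.

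Above 0 it was 6.47 for Adgra1, 5.38 for Ephb4, 4.93 for Crabp2, 2.72 for Plagl1, 2.57 for Gadd45a, 2.31 for Gclc, 2.25 for Myc, 1.76 for Mmp2, 1.74 for Met and 1.62 for Kitl. It was also 1.48 for Kdm3a, 1.45 for Fth1, 1.38 for Cdkn1a, 1.30 for Phlda3, 1.30 for Abcc1, 1.27 for Mitf, 1.26 for Ddit3, 0.71 for Lgals1 and 0.60 for Braf. Among the mesenchymal genes it was 2.00 for Cdh6, 1.92 for Cd44 and 1.16 for Itga5. Below 0 it was -11.82 for Baiap2l1, -10.70 for Eln, -9.47 for Cacna1b, -9.29 for Lama2, -8.97 for Nefl, -8.91 for Nkd2, -8.65 for Col23a1, -8.18 for Stc1, -7.65 for Tbx15 and -7.21 for Adcy3. Next came -7.20 for Sod3, -7.11 for Gm43489, -6.93 for Brinp3, -6.50 for Shc2, -6.34 for Lum, -6.20 for Syce2, -5.75 for Il33, -5.64 for Col15a1, -5.51 for Gprasp2 and -4.29 for Dhrs3. Less far from 0 were -3.51 for Hgf, -2.67 for Ccl8, -2.14 for Ptn, -1.75 for Peg10, -1.59 for Stat2, -1.44 for Mmp19, -1.30 for Col5a1, -1.25 for Col3a1, -1.22 for Aqp1 and -1.20 for Sparc. The values nearest to 0 were -1.16 for Plk1, -1.15 for Pdgfra, -0.84 for Mertk, -0.75 for Hspa5, -0.60 for Spred1 and -0.60 for Spry2.

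The clones stood in opposite order in the R and the TN pair, with a call in both, for Nefl, Nkd2, Col23a1, Stc1, Tbx15, Col15a1, Eln, Il33, Crabp2, Dhrs3, Phlda3, Fth1, Gclc and Cd44. For Eln the R call rested on 1 high library and ended without it, replicate 2 of 14559R (edgeR adjusted p = 0.693). That of Stc1 ended without replicate 1 of 14559R (edgeR adjusted p = 0.0886) and in other fits given above.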

How the results depend on the processing

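Against 2730 genes called in all, the fit of only the groups compared called 1726 (912 higher, 814 lower, 1650 of them among the first), with fewer samples behind its spread. Median-of-ratios scaling gave 2745, no filter 2713 and DESeq2 2952. With each library left out the count was 1641 to 2876 (798 to 1289 higher, 843 to 1587 lower), lowest without 2646R replicate 1. The same ranges were 1703 to 2086 for the TN pair (837 to 1082 higher, lowest without 14559TN replicate 1), 2801 to 3239 for treated tumours, 1520 to 2617 for R minus TN (753 to 1419 lower, lowest without 2646R replicate 1) and 756 to 1255 for treated minus untreated (399 to 608 lower, lowest without 14559R replicate 3 and, at 400, without 2646R replicate 1). Median log2 fold changes were 0.438 to 0.498 on chromosome 15 and 0.448 to 0.500 on chromosome 19. Of 116 named genes called, not counting Cd44, Cdh6, Itga5 and Wnt5a, 97 kept the call under every alternative run and 19 lost it under at least 1, most often (14) without 2646R replicate 1. Many of them were picked by small adjusted p or large fold change, so this share need not hold for all calls. Of the 2730 calls, 1565 remained without 2646R replicate 1. Sox10 went from a log2 fold change of -1.96 (edgeR adjusted p = 0.0497) to 0.50 (edgeR adjusted p = 0.681) without 14559R replicate 3, and with each library left out it was -2.53 to 0.50. The cause of these changes was not tested beyond the loss of samples itself. No paired analysis was possible because each tumour has its own code and the labels carry no replicate numbers. At 3870756 to 5278453 counts a library, changes of 1.5-fold were seldom recovered in simulated data with few changed genes and 1 common variation. That need not hold for the real counts.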

Other observations

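Other pathway lists held calls in both directions in untreated 2646R against untreated 14559R, where 20.5% of all tested genes were called. Of 21 tested targets of YAP and TEAD, factors that respond to cell shape and density, 4 were higher and 1 lower in 2646R, with a median log2 fold change of 0.28. For 19 genes of the Wnt pathway, 2 were higher and 5 lower (median -0.27). Among 26 genes of TGF-beta, activin and BMP signalling, 3 were higher and 6 lower (median -0.39). The 31 genes of sterol and fatty acid synthesis had 5 higher and 2 lower calls, the 29 nuclear genes of oxidative phosphorylation 3 and 2, and the 18 ABC transporters 3 and 4. Of 31 lysosome and autophagy genes, 2 were higher and 5 lower in untreated 2646R. In treated 2646R against treated 14559R 21 were lower, where 14% of all tested genes were. For 9 of the 31 the difference between the clones differed with treatment by the edgeR test, against 8.38% of all tested genes.

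Of 17 tested genes of the mitochondrial genome, 8 were called higher in untreated 2646R, against 10.2% of all tested genes. The median log2 fold change of the 17 was 0.98. The median was -0.47 in the TN pair and -0.33 in the treated R pair. Most calls fell on transfer RNA genes (mt-Tf, mt-Tv, mt-Tl1, mt-Tq, mt-Tm and mt-Tp). The others were the ribosomal RNA mt-Rnr1 (log2 fold change 0.98 ± 0.32 SE, adjusted p = 0.0312, edgeR) and mt-Co1, a subunit of cytochrome c oxidase (log2 fold change 1.06 ± 0.32 SE, adjusted p = 0.0156, edgeR). Counts on the mitochondrial genome were 0.157%, 0.131% and 0.0758% of the total in 2646R replicates 1, 2 and 3 and 0.0627% to 0.0737% in 14559R. The 14669 genes with a count in 2646R replicate 1 were fewer than in the other 5 untreated libraries of the R clones. Without that library 2 of the 17 were called higher (median 0.68), and without each of the other 5, a step chosen after the data were seen, 3 to 7 (median 0.80 to 1.12). The count was 4 without replicate 1 of 14559R and 3 without replicate 2 or replicate 3.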
